A study of Homo sapiens with 6 samples.

Results

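The metallothioneins examined here are MT2A, MT1X, MT1E, MT1F, MT1L and MT1G, 6 genes of the 25987 with a symbol in the count table, found by their symbols. RNA-seq was run on 786-O, an established human renal cell carcinoma line that lacks functional VHL and that the labels call wild type. The copper group was 3 cultures adapted to copper in the medium, and the control group was 3 cultures without added copper. Both groups grew in DMEM/F12 with serum, and that serum had been kept overnight in the cold, with copper sulfate for the copper group only. The series text gives 30 uM copper, whereas the treatment label reads 30 uM for the first copper replicate, 31 for the second and 32 for the third. The labels do not say whether cultures were grown separately, so p-values measure the spread between these cultures, which may be technical. In bulk RNA, fewer cells expressing a gene and less RNA per cell cannot be told apart.

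Metallothioneins are small cytosolic proteins in which cysteines hold zinc or copper in clusters. They buffer free metal, and their genes are among the best known targets of the zinc-sensing transcription factor MTF1. Excess copper is thought to displace zinc from metallothionein and so to reach MTF1 indirectly, while oxidants and glucocorticoids can also raise some members. MTF1 binds short metal response elements, usually repeated upstream of the gene. The kidney is among the tissues rich in metallothionein. All members lie in 1 cluster on chromosome 16.

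The sequences before MT2A, the member with the most counts, and MT1X, which had the largest fold change of the 5 members tested, show how such elements are placed. RefSeq's promoter table (GRCh38.p14) matched these 2 of the 6 members. The stretches printed are the 250 bases before each annotated start, chr16:56608334-56608583 for MT2A and chr16:56682220-56682469 for MT1X, both on the plus strand. Capitals mark matches on either strand to the core of the metal response element, TGCACNC or TGCGCNC.
MT2A: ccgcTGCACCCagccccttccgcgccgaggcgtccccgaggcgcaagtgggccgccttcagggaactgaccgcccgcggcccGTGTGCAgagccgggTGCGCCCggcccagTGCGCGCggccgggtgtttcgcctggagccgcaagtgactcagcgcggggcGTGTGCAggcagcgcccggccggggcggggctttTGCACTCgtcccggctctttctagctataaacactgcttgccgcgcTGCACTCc
MT1X: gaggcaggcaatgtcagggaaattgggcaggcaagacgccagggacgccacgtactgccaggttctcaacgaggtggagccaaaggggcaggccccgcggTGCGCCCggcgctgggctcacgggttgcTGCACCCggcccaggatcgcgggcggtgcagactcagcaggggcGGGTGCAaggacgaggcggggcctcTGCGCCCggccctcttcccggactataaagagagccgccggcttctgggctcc
MT2A held 7 such cores and MT1X held 4. At least 1 core was present in 24.8% of the 35116 promoters in the table over the same length. At least 7 were present in 0.0313% of them, and at least 4 in 0.370%. Each stretch also held 1 TATA box (TATAAA), present in 10.7% of promoters, and 1 core of the antioxidant response element (TGACNNNGC), present in 10.9%. The antioxidant core lay 104 bases before the start of MT2A and 243 bases before that of MT1X, and neither overlapped a metal response core. These matches describe letters, not bound sites.

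**Figure D1:**
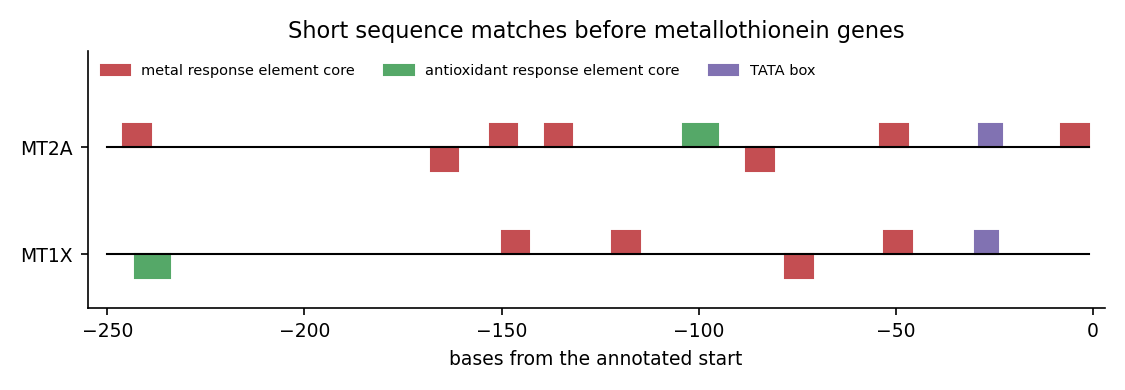
Map of short sequence matches in the 250 bases before MT2A and MT1X, with distance from the annotated start in bases on the x axis. Boxes above a line are matches on the plus strand and boxes below it on the minus strand: 7 metal response cores stand before MT2A and 4 before MT1X, with 1 TATA box each close to the start.

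Copper libraries held between 16301772 and 18189469 counts, control libraries between 19219090 and 25079913, and 12944 genes passed the filter on low counts. All 10 markers of tubule or renal carcinoma origin passed it, among them PAX8, with a summed level of 4993 to 5797 CPM in copper and 5355 to 5648 in control. All 5 leukocyte and all 5 endothelial markers stayed under 1 CPM in every library, although none was at 0 in all of them. Of the 5 fibroblast markers 3 did so, and of the 5 hepatocyte markers 4. Replicate 3 of both groups stood apart from the other libraries on the first principal component, at 41.2 and 17.6 against -17.6 to -11.7. Same-numbered libraries of the groups deviated together, as the methods describe, so each result is given without and with the replicate number as a block. Without the block, edgeR called 0 of 12944 genes at an adjusted p under 0.05 (0.00%), and 455 genes (3.52%) had an unadjusted p under 0.05. With it, 22 genes were called (0.170%), 16 of them higher in copper (0.124%). DESeq2 without the block called 27 (0.209%), 18 of them higher (0.139%). In replicates 1 and 2 alone edgeR called 111 of 12966 genes (0.856%), 65 of them higher (0.501%).

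Summed over the family, metallothionein RNA in copper was 2.15 times its control level. The summed level was 915, 1044 and 1028 CPM (counts scaled by TMM library size) in copper replicates 1, 2 and 3. In control replicates 1, 2 and 3 it was 445, 476 and 469 CPM. Every copper library lay above every control library, and the means were 996 ± 70.5 CPM in copper and 463 ± 16.1 in control (SD, n = 3 each). The log2 difference was 1.10, with an exact two-sided permutation p of 0.10, the smallest that 3 against 3 libraries can give. Of the 532 CPM added, MT2A carried 70.7%, MT1E 22.7% and MT1X 5.64%. The family took 0.0921% to 0.105% of all counts in copper and 0.0441% to 0.0469% in control.

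MT2A (Entrez 4502; GRCh38 chromosome 16, 56608584 to 56609497) encodes the most abundant and most widely expressed human metallothionein. It stood at 631, 724 and 803 CPM in copper replicates 1, 2 and 3, and at 328, 349 and 351 CPM in control replicates 1, 2 and 3. The groups did not overlap, as was so for 10.8% of all tested genes (5.45% with copper higher), and the control libraries were close to each other. edgeR put its log2 fold change at 1.07 (SE 0.11), with adjusted p-values of 0.0843 without the block and 0.00516 with it. DESeq2 gave an adjusted p of 1.80e-13. Without copper replicate 3, the fit without the block called it as well (adjusted p 0.00296 by edgeR), at a log2 fold change of 0.98. Among all tested genes MT2A had the second smallest p without the block, yet it ranked 26 by log2 fold change.

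MT1E (Entrez 4493; chromosome 16, 56625781 to 56627112) encodes another metal-binding isoform and was the second most counted member. Its level was 233, 258 and 142 CPM in copper replicates 1, 2 and 3. In control replicates 1, 2 and 3 it was 91.8, 101 and 77.2 CPM. The groups did not overlap, but replicate 3 was the lowest library of each group, and copper replicate 3 lay nearer the controls than the other copper libraries. edgeR estimated 1.23 (SE 0.22) on the log2 scale, at adjusted p-values of 0.462 without the block and 0.00995 with it, and DESeq2 gave 0.000142. In replicates 1 and 2 alone it was 1.35 (SE 0.07, adjusted p 4.72e-06 by edgeR). Leaving out copper replicate 3 alone gave 1.44 (adjusted p 0.00296 by edgeR).

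MT1X (Entrez 4501; chromosome 16, 56682470 to 56684196), a further metal-binding isoform, had the highest log2 fold change of all 12944 tested genes. AKR1C3 was close to it at 2.00 (SE 0.19), so first place was not clear of the error. In some fits AKR1C3 was the higher one, as without copper replicate 2 (2.01, with MT1X at 1.96). MT1X measured 33.1, 43.0 and 43.5 CPM in copper replicates 1, 2 and 3. Control replicates 1, 2 and 3 had 7.60, 8.24 and 13.6 CPM. No library overlapped, and the high control library was replicate 3. Means were 39.9 ± 5.87 CPM in copper and 9.82 ± 3.31 in control (SD, n = 3), which edgeR fitted as 2.02 (SE 0.24) on the log2 scale. Adjusted p-values were 0.1002 by edgeR without the block, 0.00236 with it and 1.32e-12 by DESeq2. In replicates 1 and 2 alone the log2 fold change was 2.26 (adjusted p 1.89e-05 by edgeR), and without copper replicate 3 it was 1.95 (0.0466).

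**Figure D2:**
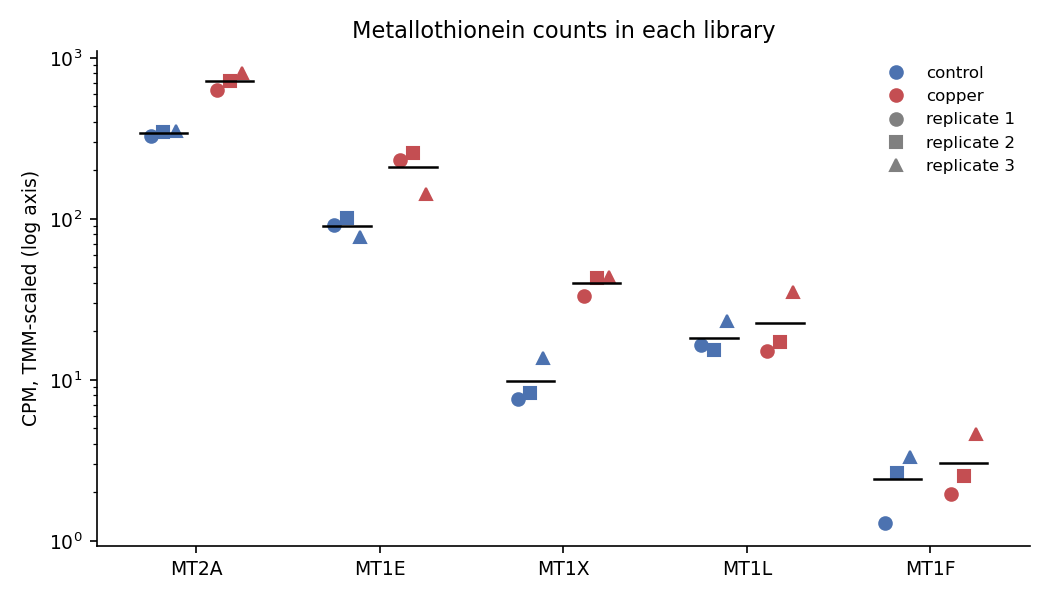
CPM of the 5 tested metallothioneins in each library on a log axis, with bars at group means (n = 3). Copper and control separate for MT2A, MT1E and MT1X, overlap for MT1L and MT1F, and replicate 3 (triangles) is low for MT1E and high for MT1L and MT1F in both groups.

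MT1L and MT1F showed no called difference. MT1L (Entrez 4500; chromosome 16, 56617461 to 56618818) is annotated as a transcribed pseudogene, so its RNA is not expected to give a working protein. It stood at 15.2, 17.1 and 35.2 CPM in copper replicates 1, 2 and 3. In control replicates 1, 2 and 3 it stood at 16.5, 15.2 and 23.2 CPM. The groups overlapped, replicate 3 was the highest library of each, and in replicate 1 the copper library was the lower one. edgeR estimated 0.30 (SE 0.33) on the log2 scale, at adjusted p-values of 1.00 without the block and 0.647 with it. Without copper replicate 3 its sign turned, to -0.18 (SE 0.18).

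MT1F (Entrez 4494; chromosome 16, 56657943 to 56659303), a metal-binding isoform, was rarely counted here, with 32, 45 and 86 counts in copper replicates 1, 2 and 3. Control replicates 1, 2 and 3 had 32, 54 and 63. In CPM these were 1.95, 2.52 and 4.64 in copper and 1.29, 2.65 and 3.30 in control. The groups overlapped, and replicate 3 was the highest library of each. Its estimate by edgeR was 0.34 (SE 0.41) on the log2 scale, at adjusted p-values of 1.00 without the block and 0.649 with it. It turned to -0.079 without copper replicate 3.

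MT1G (Entrez 4495; chromosome 16, 56666730 to 56668065, minus strand) was near the limit of detection, although this isoform is known from normal kidney. It had 1, 2 and 3 counts in copper replicates 1, 2 and 3. It had 0, 0 and 1 in control replicates 1, 2 and 3, and it did not pass the filter. The ratio of the pooled counts, 6 against 1, was 7.32 with an exact 95% interval of 0.888 to 337, which covers counting error only. Of 13 further family genes listed, 8 were in the table. MT1A, MT1B, MT1H, MT1M and the pseudogene MT1JP had 0 counts in all libraries, which allows up to 0.0256 CPM over the 117330484 counts of the 6 libraries. MT1HL1 and the brain isoform MT3 had 1 count each, and MT4, the isoform of squamous epithelium, had 2, all in control. Of the family's counts, MT2A took 69.0% to 78.1% in copper and 73.2% to 74.97% in control, and MT1E took 13.8% to 25.5% and 16.5% to 21.3%.

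Per length, the order of levels was MT2A, MT1E, MT1L, MT1X, MT1F and MT1G in control. Lengths were those of the RefSeq-linked transcripts in GENCODE 29. Control means per kilobase were 436 ± 16.2 CPM for MT2A, 124 ± 16.8 for MT1E, 44.5 ± 10.4 for MT1L and 21.8 ± 7.35 for MT1X (SD, n = 3), and 3.50 ± 1.49 for MT1F. In copper MT1X, at 88.6 ± 13.04 CPM per kilobase, stood above MT1L, at 54.8 ± 26.9 (SD, n = 3). Their libraries overlapped in copper, so that the order of these neighbours there was not clear of the spread, whereas in control they did not overlap. All other neighbours in the order were apart in both groups.

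The members have like coding parts, and how far their reads can be told apart differed between them. Among windows of 50 bases, 45.1% of those in the MT1X transcript also occurred in transcripts of other genes, against 20.2% for MT1G, 10.6% for MT1E, 4.88% for MT2A, 4.42% for MT1L and 3.59% for MT1F. At 75 bases the share was 31.6% for MT1X, 6.63% for MT1G, where it was shared with MT1X and a pseudogene, 1.68% for MT1E and 0 for MT2A, MT1L and MT1F. At 100 bases it was 19.1% for MT1X and 0 for the other members. All of that 19.1% was shared with AC026461.1, a gene that overlaps MT1X from the same first base on the same strand. AC026461.1 has no row in the count table. It also shared windows with MT1X at 50 and 75 bases, so the MT1X shares may overstate what MT1X shares with other members. The read length and the handling of reads with several matches are not given in the sources used here. The MT1X level is therefore uncertain, by an amount that was not tested, and so are the few counts of MT1G and their ratio. Reads given to one member in place of another leave the family sum as it is, whereas reads discarded for matching several genes do not.

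**Figure D3:**
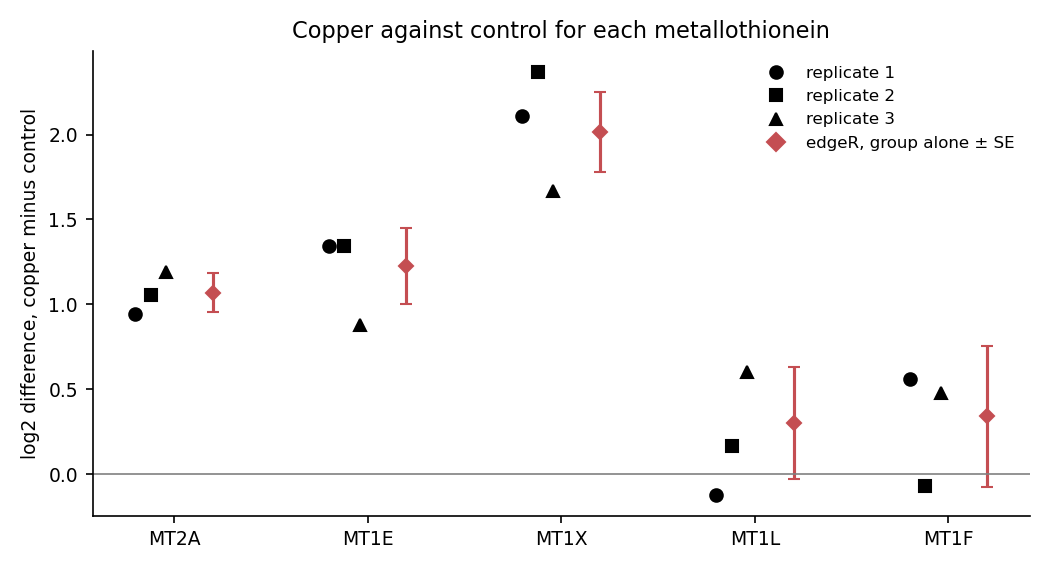
Log2 difference in CPM between copper and control libraries of the same number (black, by replicate) beside edgeR's log2 fold change without the block (red, ± SE). MT1X lies highest, MT2A and MT1E lie near 1, and MT1L and MT1F include values below 0.

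Ratios between members within a library need no scaling between libraries, and they were compared for the other 5 members against MT2A. The log2 ratio of MT1X counts to MT2A counts was -4.25, -4.07 and -4.20 in copper replicates 1, 2 and 3. In control replicates 1, 2 and 3 it was -5.43, -5.40 and -4.69. The ratio was higher in copper by 0.99, with no overlap, and the MT1X share of the family was 3.99% ± 0.33 in copper and 2.11% ± 0.69 in control (SD, n = 3). The ratio of MT1L to MT2A was lower in copper by 0.85, at -5.38, -5.40 and -4.51 in copper replicates 1, 2 and 3. Against this stood -4.31, -4.51 and -3.92 in control replicates 1, 2 and 3. The groups overlapped slightly, since copper replicate 3 lay just above control replicate 2, but within replicate numbers 1, 2 and 3 the ratio of MT1L differed by -1.06, -0.89 and -0.59. That of MT1F differed by -0.34, -1.12 and -0.70.

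The ratio of MT1E to MT2A differed by 0.13 on average, but the replicates parted. It was higher in copper by 0.40 and 0.29 in replicates 1 and 2, and the difference was -0.31 in replicate 3. Over the 5 ratios, MT1G included, exact two-sided permutation p-values were 0.10 for MT1X, 0.20 for MT1L and MT1F, 0.30 for MT1G and 0.70 for MT1E. Adjusted over the 5 they ranged from 0.333 to 0.700, so no ratio passed the test, and 3 against 3 libraries allow no raw p below 0.10. The within-number differences give a sign-flip p of at least 0.25, the smallest that 3 pairs allow.

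**Figure D4:**
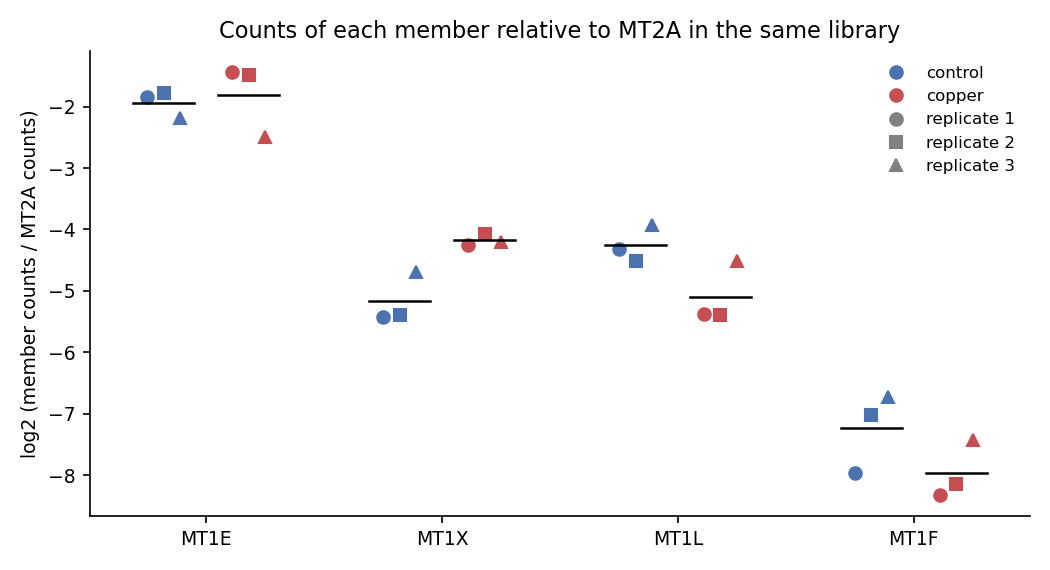
Log2 ratio of each member's counts to MT2A counts in the same library, with bars at group means (n = 3). MT1X is higher in all 3 copper libraries, MT1L and MT1F are lower on average, and MT1E (at the left) is lowest in replicate 3 of both groups.

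Replicate 3 differed from replicates 1 and 2 in its mix of members more than in its total. The family sum of replicate 3 was 1.05 times the mean of replicates 1 and 2 in copper and 1.02 times in control. For MT1E the same ratio was 0.578 in copper and 0.799 in control. For MT1L it was 2.18 and 1.46, and for MT1F 2.07 and 1.68. MT1E was thus low, and MT1L and MT1F high, in replicate 3 of both groups, while MT2A stood at 1.19 and 1.04 and MT1X at 1.15 and 1.72. In copper replicate 3 MT1E made up 13.8% of the family's counts (exact 95% interval 13.3% to 14.3%), against 25.5% and 24.7% in copper replicates 1 and 2. These intervals cover counting error only, and what sets replicate 3 apart was not tested.

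Of the 5 tested members, 0 were called without the block, against 0.00% of all tested genes, and 3 with it, against 0.170%. Their median log2 fold change was 1.07, against 0.0052 over all tested genes. Members were chosen with earlier results of these data known, so this contrast is descriptive. The metal sensor MTF1 itself was at 31.3 ± 4.24 CPM in copper and 34.7 ± 2.39 in control (SD, n = 3), with a log2 estimate of -0.15 (SE 0.13). Of 25 genes of metal sensing and zinc transport, 18 were tested and 0 were called with or without the block, with a median of -0.09. The zinc exporter SLC30A1, itself a target of MTF1, had a log2 fold change of 0.98 (SE 0.39; adjusted p by edgeR 1.00 without the block and 0.242 with it). Within numbers its log2 difference was 1.14 in replicate 1, 1.26 in replicate 2 and 0.11 in replicate 3, and edgeR called it without copper replicate 3 (adjusted p 0.0186) and in replicates 1 and 2 alone (0.000222). With the block SLC30A1 was also called when any 1 pair was left out. Its adjusted p-values by edgeR were 0.0398 without replicate 1, 0.0380 without replicate 2 and 3.25e-08 without replicate 3. Those fits called more genes of all kinds, at 74 of 13036, 77 of 13078 and 912 of 12966. The block with all pairs called 22 of 12944. The other 17 tested genes of this list lay between -0.27 (SLC39A14) and 0.20 (SLC39A11).

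Genes of copper transport and delivery showed a median log2 fold change of 0.03, with 10 of 12 tested and 0 called with or without the block. The importer SLC31A1 was at -0.10, the exporters ATP7A and ATP7B at -0.40 and -0.26. ATP7A had the smallest p of this list (unadjusted 0.0901 by edgeR) and its log2 differences were -0.08, -0.15 and -1.08 in replicates 1, 2 and 3.

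Of 14 targets of oxidative stress signalling, all tested, the fit without the block called 0, against 0.00% of all tested genes. Against 0.170% of all tested genes (0.124% higher), the blocked fit called 4 of the list, all higher. These were AKR1C3, AKR1C1, HMOX1 and NQO1, enzymes of carbonyl, heme and quinone metabolism, with log2 fold changes of 2.00, 1.71, 1.09 and 0.68. AKR1C3 and AKR1C1 belong to 1 gene family, and how far their reads can be told apart was not tested. AKR1C3 had the smallest p of the list (adjusted p by edgeR 0.0843 without the block and 0.000869 with it). HMOX1, which degrades heme, was at 65.3 ± 10.2 CPM in copper and 30.6 ± 5.63 in control. AKR1B10, a further carbonyl reductase, stood at 1.52, with adjusted p-values of 0.0533 by edgeR with the block and 5.21e-05 by DESeq2. DESeq2 called 5 genes of the list, against 0.209% of all tested genes. The list's median was 0.39, and 14 of 14 fold changes were above 0, against 6657 of all 12944 tested genes. The list was chosen with earlier results of these data known, so these values describe it and are no independent test. Within replicate 3 the log2 difference was -0.23 for TXNRD1, -0.44 for SLC7A11 and 0.0023 for GCLM, which make thioredoxin reductase, a cystine transporter and a subunit for glutathione synthesis.

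Of 10 glucocorticoid targets 9 were tested, 0 were called with or without the block, and their median log2 fold change was -0.11. FKBP5, a chaperone often used to read glucocorticoid action, was at 60.9 ± 17.3 CPM in copper and 56.0 ± 7.65 in control (SD, n = 3). PER1, a clock gene and the list's member with the smallest p, had a log2 fold change of -0.18 (SE 0.15). In the blocked fit without replicate 3, edgeR called FKBP5 higher (0.25, adjusted p 0.0110). That fit called 912 of 12966 genes, 373 of them higher. With all replicates the blocked edgeR fit gave FKBP5 an adjusted p of 0.829.

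Genes around the cluster showed no called difference. Within 1000000 bases of the members 19 other genes were tested, and 0 were called with or without the block. Their median log2 fold change was 0.04 and their range -0.29 to 0.25, below the values of MT2A, MT1E and MT1X. BBS2, the nearest tested gene before the cluster at 88560 bases, had a log2 fold change of 0.04 (SE 0.12). NUP93, a nuclear pore gene 97633 bases beyond it, had 0.05 (SE 0.09). No tested gene outside the family lay between the members. ADGRG1, an adhesion receptor, had the smallest p of the neighbours (unadjusted 0.0956 by edgeR), at -0.29.

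**Figure D5:**
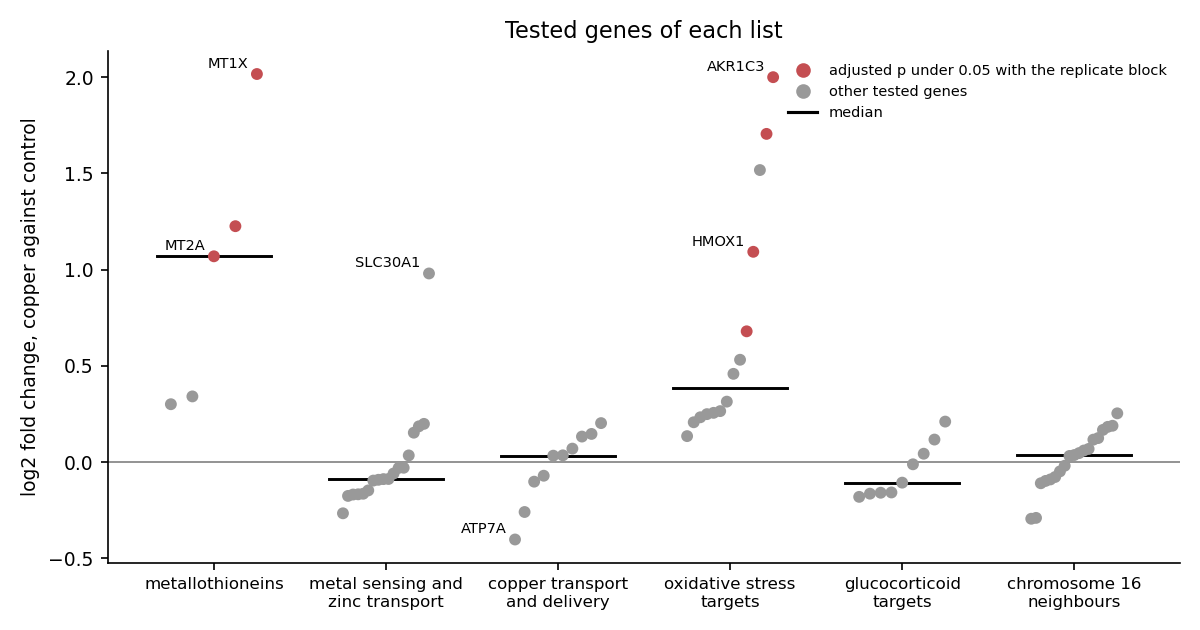
Log2 fold change without the block for each tested gene of 6 lists, sorted within the list, with bars at medians and red for genes called with the replicate block. MT2A, MT1E and MT1X stand above all genes of the zinc, copper, glucocorticoid and neighbour lists. In the oxidative stress list AKR1C3 reaches the level of MT1X, and AKR1C1 (1.71) and AKR1B10 (1.52) lie above MT1E. HMOX1 (1.09) is level with MT2A, and the other genes of that list lie below MT2A. SLC30A1 (0.98, SE 0.39) lies close below MT2A, and in replicates 1 and 2 alone, not plotted, it was above MT2A (1.21 against 1.00).

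The genes whose log2 CPM followed the summed metallothioneins most closely over the 6 libraries were C17orf97, IER5, SPP1, CYP46A1 and BHMT2. Their Pearson r was 0.997, 0.996, 0.988, 0.986 and 0.985, a description over 2 groups of 3 libraries among 12939 genes compared, of which 29 reached 0.95. A high r here says little of size. IER5, an immediate early gene, was at 62.2 ± 0.30 CPM in copper and 54.3 ± 0.48 in control (SD, n = 3). SPP1, which encodes osteopontin, went from 109 ± 1.51 to 182 ± 14.3 CPM, with an adjusted p by edgeR of 0.111 without the block and 0.0232 with it. BHMT2, a methyltransferase of homocysteine metabolism, went from 18.3 ± 0.93 to 33.7 ± 0.23 CPM, with 0.0843 and 0.0138. C17orf97 and CYP46A1 were low throughout, at 3.03 ± 0.089 and 0.661 ± 0.047 CPM in copper and 2.19 ± 0.056 and 0.452 ± 0.017 in control, and were not called with or without the block. By Spearman's rho 3 of the 5 stayed among the 50 closest genes.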

How the data were processed

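The authors deposited 1 table of raw read counts per gene for 6 libraries, made from total RNA with a directional kit per the labels' protocols. STAR, FastQC, edgeR and GRCh38 are named in the submitters' processing notes, with no versions or settings. The counting program, its use of strand and its handling of reads with several matches are not given in the sources used here. Positions are those of the table, with 1 added to starts that count from 0. Rows without a symbol (5, 0.000814% of counts) were left out, and CPM used the TMM-scaled library sizes. The members and lists were chosen with earlier results of these data known.

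Counts were tested in R 4.3.3 with edgeR 4.0.16: filterByExpr (minimum count 10, minimum total 15), TMM scaling, the robust quasi-likelihood test of copper against control, and Benjamini-Hochberg adjustment over all 12944 genes, with calls at an adjusted p under 0.05. The prior count behind log2 fold changes was 2, and the SE is the log2 fold change divided by the square root of F. Log2 ratios within a library added 0.5 to counts. Named genes were the members, family genes with a count, 7 fixed genes (MTF1, SLC30A1, HMOX1, ATP7A, ATP7B, SLC31A1, FKBP5), in each other list the gene with the lowest p, the nearest neighbours, and the 5 genes most like the family sum. Other genes named stand at the ends of a list, are called members or markers of it, or differed in replicate 3, and were chosen after their values were seen.

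Replicate numbers come from the labels, which name no shared batch. Across 12944 genes, deviations from the group mean correlated between same-numbered libraries at 0.46, 0.40 and 0.65. Pairs of replicates 1 and 2 with crossed numbers reached 0.27 and 0.32. Deviations within a group cancel out, so replicate 3 standing apart in both groups also raises r among replicates 1 and 2. Alternatives were other scalings, filters and prior counts, DESeq2 1.42.0, limma-voom (limma 3.58.1), the replicate block, a term for replicate 3, replicates 1 and 2 alone, and each library left out.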

Additional observations from a re-analysis of the deposited data

How the results depend on the processing

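MT2A, MT1X and MT1E stayed higher in copper under all 20 alternatives run for each. Calls appeared under some of them only. With no filter, 12 genes were called, among them MT2A (log2 fold change 1.05) and MT1X (2.00) but not MT1E. DESeq2 called 27, with MT2A at 1.07, MT1X at 2.02 and MT1E at 1.22. The replicate block called 22, with MT2A at 1.06, MT1X at 2.04 and MT1E at 1.19. The term for replicate 3 called 35, with 1.07, 2.05 and 1.19 for the same genes. Replicates 1 and 2 alone called 111, with 1.00, 2.26 and 1.35. The other scalings, the mean-count filter, limma-voom and the lower prior count called 0 genes, as the fit without the block did.

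Fits without 1 library called 0 to 15 genes, 15 only without copper replicate 3, and gave 0.98 to 1.15 for MT2A, 1.86 to 2.32 for MT1X, 1.05 to 1.44 for MT1E, -0.079 to 0.62 for MT1F and -0.18 to 0.52 for MT1L. The block with 1 pair left out called 74, 77 and 912 genes, 912 without replicate 3, and gave 1.00 to 1.12 for MT2A, 1.88 to 2.24 for MT1X and 1.11 to 1.34 for MT1E. The family sum ranged from 1.07 to 1.18 on the log2 scale over its 11 alternatives, with or without the block or MT2A. The log2 ratio of MT1E to MT2A turned to -0.060 without copper replicate 1 and -0.032 without copper replicate 2, against up to 0.47 without copper replicate 3, and that of MT1G to -0.011 with a pseudocount of 2. FKBP5 ranged from -0.024 (without copper replicate 1) to 0.33, turned to -0.040 with the block without replicate 2, and was called at 0.25 with the block without replicate 3. BBS2 ranged from -0.064 (without copper replicate 3) to 0.103 and was -0.027 without control replicate 2. In each case the cause was not tested. The counts of MT1G and MT1F limit what can be said of them, and no setting moved the median over all genes above 0.033 on the log2 scale.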
